A study of Mus musculus with 24 samples.

Results

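The differentially 5-hydroxymethylated regions (DhMRs) described here lay at 9 genes that write, copy or remove DNA methylation: *Tet1*, *Tet2*, *Tet3*, *Dnmt1*, *Dnmt3a*, *Dnmt3b*, *Dnmt3l*, *Uhrf1* and *Tdg*. A DhMR belonged to a gene when it overlapped the gene's span in GRCm38 (GENCODE vM21), lay within 20 kb of it, or carried the gene's Ensembl ID in the deposited lists. By this rule 27 of 20726 DhMRs belonged to the 9 genes, of which 15 were higher in AA10 cells and 12 were higher in Wt25 cells.

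Wt25 and AA10 are mouse embryonic stem cell (ESC) lines, each a single puromycin-selected clone from the same *Tet1*, *2*, *3* triple knockout (TKO) parent of mixed C57BL/6J-129V background, grown in 2i medium with LIF. Both lines therefore lacked the Tet enzymes of the mouse, and both carried a lentiviral, Flag-tagged, full-length human Tet3. In Wt25 this Tet3 was wild-type. In AA10 it was the phosphor-mutant AA, in which the serines of both SPx(K/R) motifs, the sites phosphorylated by the kinase cdk5, were replaced by alanine. DNA fragments that carry 5-hydroxymethylcytosine (5hmC) were recovered with an antibody and sequenced (5hmC-DIP), with 3 libraries of each line. The comparison asked where 5hmC differs between cells with wild-type and phosphor-mutant Tet3.

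The deposited lists give each DhMR by chromosome, start and end, most with the Ensembl ID of a gene, and pool the libraries of a line. They hold 12096 DhMRs higher in Wt25 and 8630 higher in AA10, no DhMR stood in both, and 41.6% of all DhMRs were higher in AA10. There is no read count, fold change, P-value or replicate value behind a DhMR here, so the error of each call is unknown, no difference below is tested, and the knockout of the mouse *Tet* genes could not be checked on reads. Each line is 1 clone, so phosphorylation of Tet3 and any other difference between the clones cannot be told apart. Of the 200 bp bins of chromosomes 1 to 19, X and Y, 0.0888% were listed as higher in Wt25 and 0.0633% as higher in AA10.

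Cytosine in CpG is methylated to 5mC by the DNA methyltransferases. Dnmt3a and Dnmt3b methylate unmarked DNA, and Dnmt3l, which has no catalytic activity, stimulates them. Dnmt1 copies the mark to the new strand after replication, where Uhrf1 binds hemimethylated CpG and recruits it. Tet1, Tet2 and Tet3 oxidise 5mC to 5hmC and further to forms that the glycosylase Tdg cuts out, after which base excision repair restores an unmarked cytosine. 5hmC is abundant in ESCs and in neurons, and it marks enhancers and the bodies of many genes.

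By position, all 3 *Tet* genes held DhMRs higher in AA10 and none higher in Wt25. The authors' annotation and the nearest transcription start site gave those of *Tet3* to other genes. *Dnmt1* and *Dnmt3a* held DhMRs higher in Wt25 and none higher in AA10. *Dnmt3l* had 1 DhMR higher in AA10 beside the gene, and *Dnmt3b*, *Uhrf1* and *Tdg* had none. None of the 6 members with a DhMR had both directions. Both were uncommon in general, at 13.4% of the 8781 protein coding genes with a DhMR inside or within 20 kb. With 6 genes, having none with both is therefore no particular trait. Of the 9 genes, 4 (44.4%) had a DhMR higher in AA10 inside or within 20 kb and 2 (22.2%) had one higher in Wt25. Of all 21938 protein coding genes, 19.4% had one higher in AA10 and 26.0% one higher in Wt25.

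**Figure D1:**
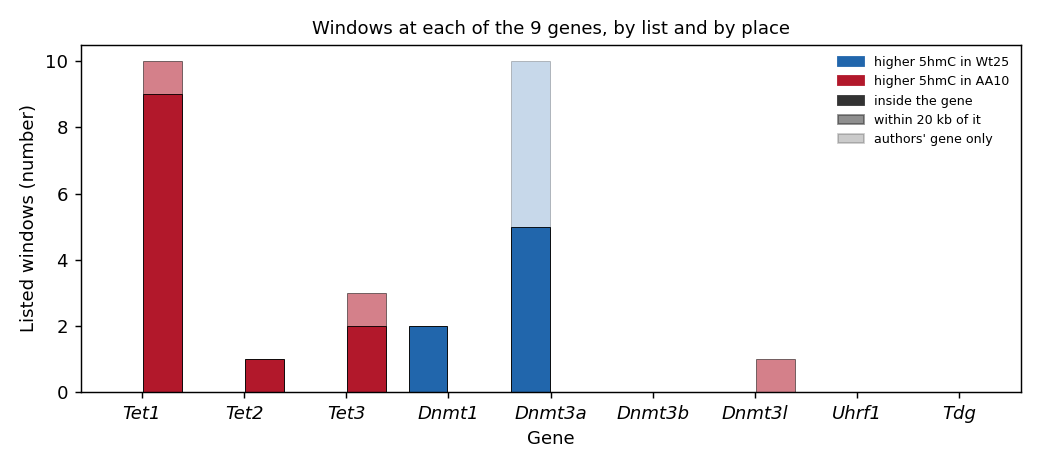
Number of DhMRs (vertical axis) at each of the 9 genes (horizontal axis), in blue where 5hmC was higher in Wt25 and in red where it was higher in AA10. Full colour stands for DhMRs inside the gene, medium for those within 20 kb and pale for those tied to the gene by the authors' annotation alone, and *Tet1* reaches 10 in red while *Dnmt3a* reaches 10 in blue.

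The DNA of the DhMRs that carry this pattern is shown here as the plus strand of GRCm38.p6, 5′ to 3′, with every CpG, the site at which 5hmC is formed, in capitals. Each listed window spans all but 2 bp of its 200 bp bin. The first set holds the DhMRs in coding exons, 1 in each *Tet* gene, all higher in AA10.
*Tet1* exon 6, chr10:62832803-62833000: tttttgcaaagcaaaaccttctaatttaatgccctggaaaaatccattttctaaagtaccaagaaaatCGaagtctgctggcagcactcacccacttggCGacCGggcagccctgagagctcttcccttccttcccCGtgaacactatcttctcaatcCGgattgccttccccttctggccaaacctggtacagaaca
*Tet2* exon 3, chr3:133486603-133486800: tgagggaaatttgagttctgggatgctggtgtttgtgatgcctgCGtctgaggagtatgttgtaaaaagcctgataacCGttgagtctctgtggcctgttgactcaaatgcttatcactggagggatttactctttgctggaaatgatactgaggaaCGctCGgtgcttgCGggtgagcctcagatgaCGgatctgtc
*Tet3* exon 4, chr6:83404003-83404200: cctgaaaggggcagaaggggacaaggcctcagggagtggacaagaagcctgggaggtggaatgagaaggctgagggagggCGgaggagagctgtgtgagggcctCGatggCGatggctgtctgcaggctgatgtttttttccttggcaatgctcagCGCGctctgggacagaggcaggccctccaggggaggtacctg

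The second set comes from the introns of *Tet1*. The first entry is the intronic DhMR with most CpG, and the other entries are the adjoining pair in intron 2, of which one is unique sequence over most of its length and one is a repeat throughout.
*Tet1* intron 3, chr10:62864203-62864400: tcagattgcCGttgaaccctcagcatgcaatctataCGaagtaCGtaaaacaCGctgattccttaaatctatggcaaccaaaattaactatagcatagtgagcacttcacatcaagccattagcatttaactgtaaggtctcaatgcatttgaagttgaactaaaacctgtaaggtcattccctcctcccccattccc
*Tet1* intron 2, chr10:62874803-62875000: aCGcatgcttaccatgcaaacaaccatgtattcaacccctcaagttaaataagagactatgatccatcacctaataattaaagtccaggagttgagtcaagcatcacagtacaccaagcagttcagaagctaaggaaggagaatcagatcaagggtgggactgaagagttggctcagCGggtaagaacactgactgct
*Tet1* intron 2, chr10:62875003-62875200: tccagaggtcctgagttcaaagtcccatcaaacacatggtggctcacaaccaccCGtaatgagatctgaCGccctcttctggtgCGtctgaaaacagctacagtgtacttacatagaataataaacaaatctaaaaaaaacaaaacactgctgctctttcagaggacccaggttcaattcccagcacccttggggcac

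The third set holds DhMRs higher in Wt25, namely both DhMRs of *Dnmt1* and the 3 of *Dnmt3a* with most CpG.
*Dnmt1* promoter, chr9:20953403-20953600: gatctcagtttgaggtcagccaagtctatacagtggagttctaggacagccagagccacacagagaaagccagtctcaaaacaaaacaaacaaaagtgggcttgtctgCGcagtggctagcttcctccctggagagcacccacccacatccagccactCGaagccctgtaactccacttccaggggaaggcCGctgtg
*Dnmt1* intron 9, chr9:20932203-20932400: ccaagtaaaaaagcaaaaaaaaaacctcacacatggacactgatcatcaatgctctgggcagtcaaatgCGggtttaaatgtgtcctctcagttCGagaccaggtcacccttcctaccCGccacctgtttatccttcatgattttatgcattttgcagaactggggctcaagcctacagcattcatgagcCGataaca
*Dnmt3a* intron 4, chr12:3871203-3871400: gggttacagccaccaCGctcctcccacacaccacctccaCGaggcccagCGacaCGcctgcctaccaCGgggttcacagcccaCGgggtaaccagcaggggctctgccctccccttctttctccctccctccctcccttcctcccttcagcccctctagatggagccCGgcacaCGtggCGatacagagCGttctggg
*Dnmt3a* intron 2, chr12:3845203-3845400: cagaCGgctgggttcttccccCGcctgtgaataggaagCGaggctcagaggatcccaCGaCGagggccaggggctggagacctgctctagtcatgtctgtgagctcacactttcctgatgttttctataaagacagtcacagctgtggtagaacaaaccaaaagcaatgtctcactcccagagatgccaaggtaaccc
*Dnmt3a* intron 1, chr12:3830803-3831000: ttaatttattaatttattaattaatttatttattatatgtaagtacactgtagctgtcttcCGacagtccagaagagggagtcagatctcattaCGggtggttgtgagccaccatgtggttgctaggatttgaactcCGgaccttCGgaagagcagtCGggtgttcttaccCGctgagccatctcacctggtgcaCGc

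*Tet1*, which with *Tet2* encodes the main Tet enzymes of ESCs, had 10 DhMRs, all higher in AA10. The gene spans chr10:62804570-62908996 on the minus strand (104 kb), and its longest coding transcript (ENSMUST00000174189.1) has 13 exons. It held 9 DhMRs higher in AA10, or 8.62 per 100 kb, where chromosome 10 as a whole had 0.299 per 100 kb higher in AA10 and 0.529 per 100 kb higher in Wt25. Within 1 Mb of the gene and outside it, these densities were 3 and 0.75 per 100 kb, the former mostly from a group upstream at a distance from the gene. Another one lay 16570 bp past the end of the gene, at chr10:62787803-62788000, inside its neighbour *Ccar1*.

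Of the 9 DhMRs inside *Tet1*, 8 lay in introns. One lay in intron 1 (chr10:62881603-62881800), 1470 bp from exon 2. Intron 2, of 13.3 kb, held 3, at chr10:62875003-62875200, chr10:62874803-62875000 and chr10:62874003-62874200. The first of these adjoined the next bin and the third lay 602 bp away, so the 3 formed one group. Intron 3, of 24.4 kb, held another 3, at chr10:62864203-62864400, chr10:62854603-62854800 and chr10:62851203-62851400, of which the first lay 408 bp from exon 3. These first 3 introns make up 70.5% of the intron length of the transcript and held 7 DhMRs.

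The remaining DhMRs inside *Tet1* lay further towards its 3′ end. Exon 6, of 94 bp and coding throughout, lay whole inside the DhMR chr10:62832803-62833000, which holds 5 CpG and 2 of the CCGG sites that the enzyme MspI cuts. The last DhMR lay in intron 10 (chr10:62815003-62815200), 560 bp upstream of the start of a short *Tet1* transcript with 3 exons. The long coding exons 2 (1982 bp) and 4 (2203 bp) and exon 13 (8836 bp, of which 878 bp are coding) held none. The authors' annotation named *Tet1* for 7 of the 9 and *Ccar1* for the DhMRs in exon 6 and intron 10.

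**Figure D2:**
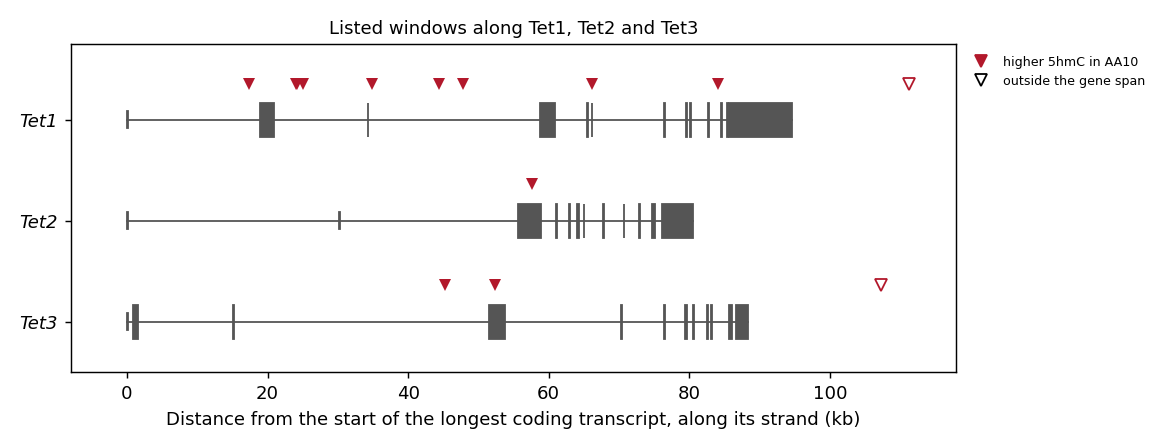
Exons of the longest coding transcript of *Tet1*, *Tet2* and *Tet3* (grey, taller boxes where an exon holds coding sequence) and DhMRs (triangles, all higher in AA10, open where outside the gene), against the distance from the start of the transcript in kb. Of the 9 filled triangles of *Tet1*, 7 fall in introns 1 to 3, and *Tet2* and *Tet3* each have a triangle at a long coding exon.

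Few genes had as many. The count at *Tet1* was known when these genes were chosen, so its rank is a description and no test. Of the 21937 other protein coding genes, 39 (0.178%) had at least 9 DhMRs higher in AA10 inside, and among 1268 genes of a length similar to *Tet1* there were 7 (0.552%). Of these 39 genes, 36 had no DhMR higher in Wt25 inside, so *Tet1* shared its single direction with nearly all of them. The 5 nearest to it in length were *Nrf1* on chromosome 6 with 30, *Sh3bgrl* on chromosome X with 17, *Usp37* with 12 and *Lamc1* with 16 on chromosome 1, and *Hmga2* on chromosome 10 with 13.

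The counts within 1 Mb of *Tet1* leaned the same way, but not evenly along the DNA. On chromosome 10, 36.1% of DhMRs were higher in AA10, but within 1 Mb of *Tet1* and outside it, 60 were higher in AA10 and 15 higher in Wt25. Of the 60, 52 lay upstream of the gene, most of them at a distance from it. Counted from its 5′ end, with upstream negative, all DhMRs from -84.1 to -263.7 kb were higher in Wt25. Beyond these, the ones higher in AA10 began at -373.3 kb. Nearer the gene and outside it, both directions were found. *Tet1* sat in a run of 19 consecutive DhMRs higher in AA10 over 375 kb, of which 9 lay in *Tet1*, 4 in *Stox1*, 2 in *Ccar1* and 2 in *Dna2*. The nearest DhMR higher in Wt25 was 84 kb away. What part the surrounding DNA has in the count at *Tet1* was not tested.

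Repeats made up part of the *Tet1* DhMRs. In 4 of the 9, at least 50% of the bases were marked as repeat, and 5 remained without them. The DhMR chr10:62875003-62875200 was repeat over its whole length, and 92 of its 167 stretches of 32 bases occurred once in the genome. Its most frequent stretch occurred 1376 times. In intron 10, 157 of 167 stretches occurred once. The coding exon DhMR and 4 others of the 9 had no stretch that occurred elsewhere, and the authors kept only reads with 1 alignment.

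*Tet2*, which lacks the CpG-binding CXXC domain found in Tet1 and Tet3, spans chr3:133463679-133545139 on the minus strand (81.5 kb, 12 exons). Its only DhMR, higher in AA10, was chr3:133486603-133486800 in exon 3. This exon of 3206 bp holds 3160 bp of coding sequence, and the DhMR lay wholly within it. With 6 CpG and no repeat bases, it held more CpG than any other DhMR higher in AA10 at the 9 genes. A single DhMR higher in AA10 is common, since 19.8% of genes of similar length had at least 1. The nearest DhMR higher in Wt25 was 953 kb away, and chromosome 3 as a whole had 41.3% of its DhMRs higher in AA10.

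*Tet3*, the family member that both lines expressed in its human form, spans chr6:83362373-83459084 on the minus strand (96.7 kb, 12 exons). It held 2 DhMRs higher in AA10. The first, chr6:83404003-83404200, lay in exon 4, a coding exon of 2158 bp, and had 5 CpG and a GC content of 61.6%, the highest among the DhMRs higher in AA10 at the 9 genes. The second, chr6:83411003-83411200, lay 6802 bp from it in intron 3, the longest intron of the transcript, and had 3 CpG. The annotation of the authors named the microRNA gene *Mir6374* for both. Another, chr6:83349003-83349200, lay 13173 bp past the end of *Tet3* in *Bola3*. All stretches of 32 bases in these 3 windows occurred once in the mouse genome. The human Tet3 sequence of the transgene was not compared with them.

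Chromosome 6 stood apart from the others of these genes. It held 1000 DhMRs higher in AA10 and 136 higher in Wt25, so 88% were higher in AA10. Within 1 Mb of *Tet3* there were 53 higher in AA10 and 0 higher in Wt25, and *Tet3* lay in a run of 72 consecutive DhMRs of that direction over 5538 kb. The nearest DhMR higher in Wt25 was 2256 kb away. Among genes of similar length on all chromosomes, 9.03% had at least 2 DhMRs higher in AA10. The share of chromosome 6 and the direction at *Tet3* cannot be told apart.

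Coding exons held 3 of the 12 DhMRs higher in AA10 inside the *Tet* genes, or 25%, and these were the windows of *Tet1* exon 6, *Tet2* exon 3 and *Tet3* exon 4 shown above. Of all 4165 DhMRs higher in AA10 inside protein coding genes, 5.57% had their midpoint in a coding exon of any coding transcript. Which exons the knockout alleles lack is not given in the sources used here, so the distance of these DhMRs from a deleted part was not measured. None of the 7 DhMRs higher in Wt25 inside *Dnmt1* and *Dnmt3a* lay in a coding exon, against 6.68% of the 6508 DhMRs higher in Wt25 inside protein coding genes.

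*Dnmt1*, the maintenance methyltransferase, spans chr9:20907209-20959888 on the minus strand (52.7 kb, 39 exons) and held 2 DhMRs higher in Wt25. The first, chr9:20953403-20953600, lay 522 bp upstream of the start of its longest coding transcript (ENSMUST00000004202.16), within the promoter as taken here, reaching 1 kb before and 100 bp past a start site. The span of the gene reaches further upstream, so this DhMR was counted as inside. It had 3 CpG, and 60.6% of its bases were repeat. The second, chr9:20932203-20932400, lay in intron 9, 4 bp from exon 10, and had 4 CpG. The annotation named *Mir7081* for it. Of genes of similar length, 8.98% had at least 2 DhMRs higher in Wt25.

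Around *Dnmt1*, 26 DhMRs were higher in Wt25 and 10 higher in AA10 within 1 Mb, and 31.8% of those on chromosome 9 were higher in AA10. The gene lay at the edge of a run of 24 DhMRs higher in Wt25 over 258 kb, of which 2 lay in *Dnmt1*, 5 in *Tyk2* and 3 in *Cdc37*. The nearest DhMR higher in AA10 was 120 kb away.

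*Dnmt3a*, a de novo methyltransferase, spans chr12:3806007-3914443 on the plus strand (108 kb, 23 exons). It held 5 DhMRs higher in Wt25, or 4.61 per 100 kb, where chromosome 12 had 0.345 per 100 kb. Within 1 Mb of the gene and outside it, there were 1.5 per 100 kb higher in Wt25. Of these, 29 lay upstream, with 25 in the neighbouring gene *Dtnb*, and 1 lay downstream, so this average hides a dense group beside *Dnmt3a*. Intron 1, of 27.9 kb, held 3, at chr12:3812203-3812400, chr12:3823003-3823200 and chr12:3830803-3831000. Intron 2 held chr12:3845203-3845400 and intron 4 held chr12:3871203-3871400. All 5 lay in the first 4 introns, which make up 66.6% of the intron length. No exon of the gene, early or late, held one, and neither did the later introns. Of all other protein coding genes, 1.19% had at least 5 DhMRs higher in Wt25 inside, and of those of similar length 3.06%.

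The 5 windows of *Dnmt3a* differed in their sequence. The one in intron 4 had 10 CpG and a GC content of 66.2%, the highest of all 27, and 2.41% of DhMRs higher in Wt25 had as many CpG. The one in intron 2 had 5 CpG and 3.54% repeat bases. The one at chr12:3830803-3831000 had 7 CpG, but it was repeat over its whole length. Only 16 of its 167 stretches of 32 bases occurred once in the genome, and its most frequent stretch occurred 10607 times. The other windows of intron 1 had 1 and 2 CpG. Intron 2 and intron 4 were assigned by the authors to *Dnmt3aos*, the antisense gene, and the list does not tell strands apart.

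**Figure D3:**
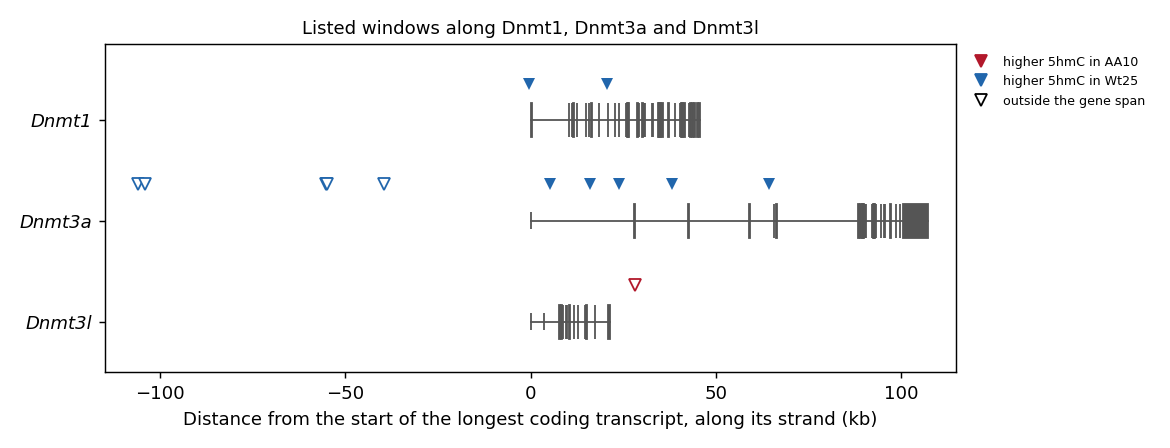
Exons of the longest coding transcript of *Dnmt1*, *Dnmt3a* and *Dnmt3l* (grey, taller boxes where an exon holds coding sequence) and DhMRs (triangles, blue where higher in Wt25 and red where higher in AA10, open where outside the gene), against the distance from the start of the transcript in kb. The 5 filled triangles of *Dnmt3a* fall in its first 4 introns, and the 5 open ones lie upstream of it.

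Another 5 DhMRs higher in Wt25 were tied to *Dnmt3a* by the annotation alone. They lay between 38607 and 105007 bp upstream of its span, all inside *Dtnb*, an upstream gene that encodes dystrobrevin beta, and one pair of them adjoined. They stand at chr12:3700803-3701000, chr12:3702803-3703000, chr12:3751803-3752000, chr12:3752003-3752200 and chr12:3767203-3767400, with 1 to 4 CpG. They belong to *Dnmt3a* by the rule, but not by position. The run of 31 consecutive DhMRs higher in Wt25 that covered both genes over 308 kb had 25 in *Dtnb* and 5 in *Dnmt3a*.

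This stretch ran against its chromosome. Of the DhMRs on chromosome 12, 58.8% were higher in AA10, but within 1 Mb of *Dnmt3a* 30 were higher in Wt25 and 8 higher in AA10, and 29 of the 30 lay upstream. The nearest DhMR higher in AA10 was 298 kb from the gene.

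*Dnmt3l*, the cofactor of the de novo enzymes (chr10:78041947-78063622, plus strand, 21.7 kb), held no DhMR. The one counted for it, higher in AA10, lay 6781 bp past its end at chr10:78070403-78070600, inside *Icosl*, which encodes a ligand of T cell costimulation. Its sequence was 77.8% repeat, and a stretch of 32 bases within it occurred 29693 times in the genome, the most of all 27. Only 44 of its 167 stretches occurred once.

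*Dnmt3b*, the second de novo enzyme (chr2:153649450-153687730), had its nearest DhMR, higher in AA10, at 34.5 kb and the nearest higher in Wt25 at 107 kb. *Uhrf1* (chr17:56303321-56323486) had one higher in Wt25 at 25.7 kb and one higher in AA10 at 187 kb. *Tdg* (chr10:82629828-82650799) was the most isolated of the 9, with the nearest at 696 kb, and within 1 Mb it had 1 of each direction. An empty gene of this size is common. Of genes of similar length, 54.7% for *Dnmt3b* and 60.1% for both *Uhrf1* and *Tdg* had no DhMR inside or within 20 kb, as had 60% of all protein coding genes. A gene without a DhMR had no bin that passed both the thresholds and the later filters of the authors, which does not show that its 5hmC was the same in both lines.

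**Figure D4:**
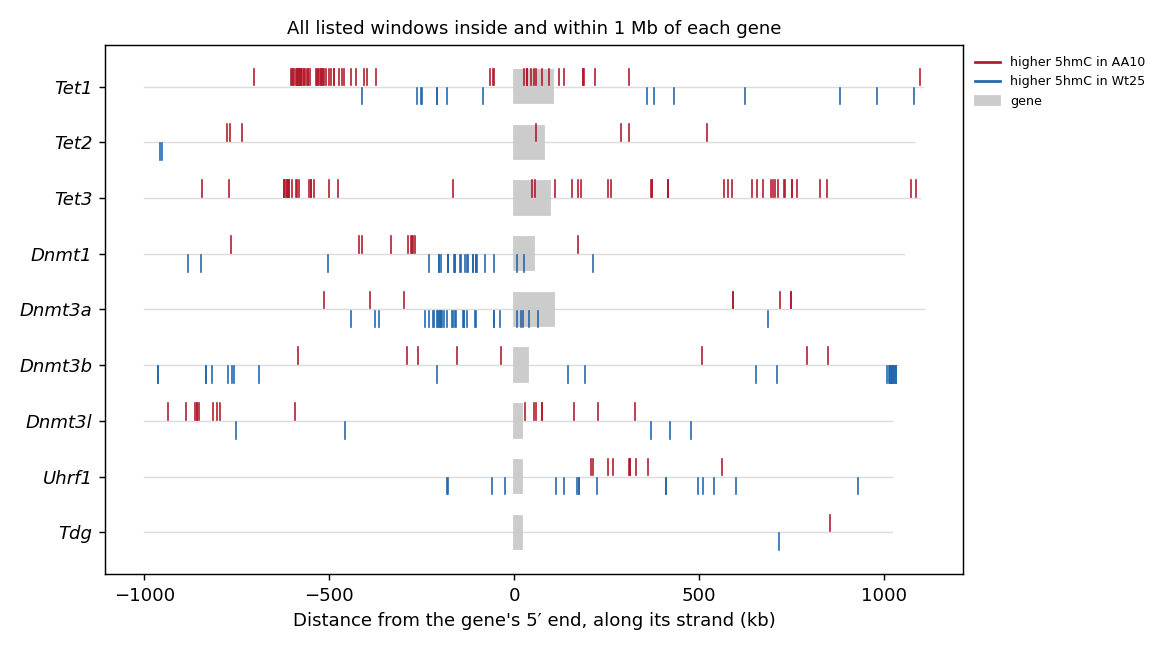
All DhMRs inside and within 1 Mb of each of the 9 genes (grey boxes), as ticks above the line in red where higher in AA10 and below it in blue where higher in Wt25, against the distance from the 5′ end of the gene in kb. The dense red group upstream of *Tet1*, the absence of blue at *Tet3*, the blue groups upstream of *Dnmt1* and *Dnmt3a* and the near empty line of *Tdg* can be seen.

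In CpG content the DhMRs of the 9 genes lay within the range of the whole lists. The 12 higher in Wt25 had a median of 3.5 CpG (1 to 10), against 3 over the 12096. The 15 higher in AA10 had a median of 3 (1 to 6), against 3 over the 8630. Those of *Tet1*, the one past its end included, had a median of 2.5 and 1 to 5 CpG, close to the median of the list. A CCGG site stood in 3 of 12 and 2 of 15, or 25% and 13.3%, against 22.2% and 20.9% of the lists. At least 50% repeat bases were found in 2 of 12 and 5 of 15, or 16.7% and 33.3%, against 25.4% and 28.2%. In 18 of the 27 every stretch of 32 bases was single in the genome.

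**Figure D5:**
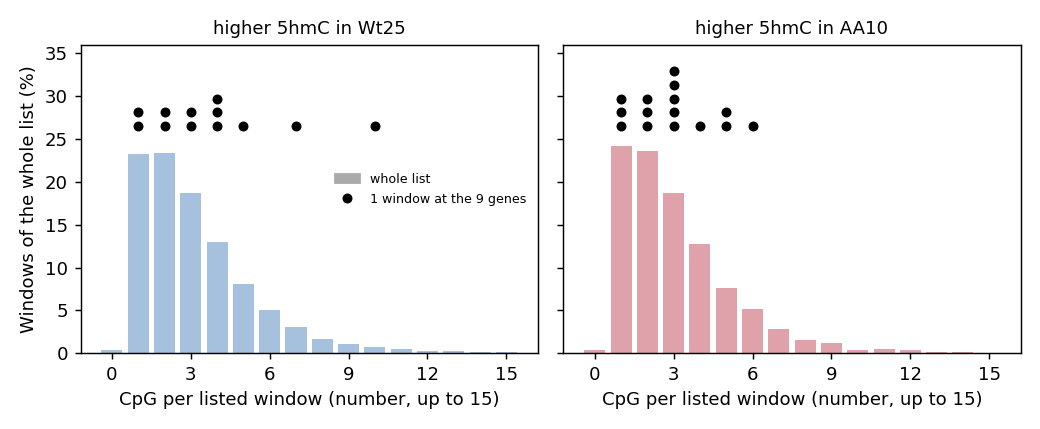
Share of all DhMRs (bars, percent) by the number of CpG in the window, up to 15, for those higher in Wt25 (left) and higher in AA10 (right), with each DhMR of the 9 genes as a black point above its number. The points spread over the common numbers, and the point at 10 CpG is *Dnmt3a* intron 4.

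Beyond the 9 genes, 50 others of DNA methylation and demethylation were counted by position, inside or within 20 kb. Unlike for the 9 genes, the gene ID of the lists was not used. By that ID alone, *Gadd45a* had 6, *Nanog* 5, *Parp1* 2 and *Gadd45g* 1 higher in AA10. Likewise *Idh2* and *Prdm14* had 2 each and *Mbd2* 1 higher in Wt25. The counts below leave these out. Of these, 17 (34%) had a DhMR higher in Wt25 and 14 (28%) one higher in AA10, beside 26.0% and 19.4% of all protein coding genes. Both directions were found at 4, and 23 had neither.

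Among 11 genes of readers of CpG methylation and their relatives, 6 had DhMRs higher in Wt25 and 2 had some higher in AA10. For this group and those below, the shares over all protein coding genes were again 26.0% and 19.4%. *Mbd2*, which binds methylated CpG as part of the NuRD repressor complex, held 3 higher in Wt25. *Mbd6* had 3 beside it, and *Mbd3*, *Zbtb4* and the glycosylase gene *Mbd4* had 1 each, also beside them. *Mbd4* thus had its DhMR against the lean of chromosome 6, where it lies. *Mbd5* held 1 higher in AA10. *Zbtb38*, a zinc finger protein that binds methylated DNA, held 3 higher in AA10 and 1 higher in Wt25.

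Among 17 genes of base excision and demethylation, with *Mbd4* counted here as well as among the readers, 5 had DhMRs higher in Wt25 and 4 had some higher in AA10. *Apobec3*, a cytidine deaminase best known for restricting retroviruses, had the most of the 50 genes, with 5 inside and 9 within 20 kb, all higher in Wt25. The glycosylase genes *Neil3* and *Smug1* had 1 each of that direction, and *Neil2* had 1 higher in AA10. *Parp1*, which binds DNA breaks, had 2 higher in AA10 within 20 kb, *Gadd45b* had 1, and the repair scaffold *Xrcc1* had 2 higher in AA10 and 1 higher in Wt25. The polymerase, ligase and endonuclease genes *Polb*, *Lig3* and *Apex1* had none.

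Among 11 partners and cofactors of the Tet proteins, 4 had DhMRs higher in Wt25 and 3 had some higher in AA10. *Ogt*, the O-GlcNAc transferase that binds Tet proteins, held 1 higher in Wt25, and *Prdm14*, *Cxxc5* and *Cdk5* had 1 each beside them. *Cdk5* is the kinase that phosphorylates the serines changed in AA10. *Nanog*, a pluripotency factor that binds Tet1, had 5 higher in AA10 within 20 kb, on chromosome 6. *Cxxc4*, whose CXXC domain is held to have split off from an ancestral *Tet2*, had 1 higher in AA10 beside it, and *Sin3a* held 1. *Idh1* and *Idh2*, which make the cosubstrate of Tet enzymes, had none within 20 kb.

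Among 11 genes that maintain or guide methylation, 3 had DhMRs higher in Wt25 and 5 had some higher in AA10. *Hells*, a chromatin remodeller needed for methylation of repeats, had 5 higher in AA10, 4 of them inside. *Kdm2b*, which brings a Polycomb complex to CpG islands, held 3 higher in AA10 and 1 higher in Wt25. *Usp7*, which stabilises Dnmt1 and Uhrf1, had 2 of each direction. *Zfp57*, which keeps methylation at imprinted regions, had 2 higher in AA10, *Ehmt2* had 1, and *Setdb1* had 1 higher in Wt25. *Trdmt1*, the related enzyme that methylates tRNA, had none. None of the counts of these groups carries a test, and in groups this small they are not read as a trait of a group.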

How the data were processed

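5hmC-DIP was performed on Wt25 and AA10 mouse ESCs, with 3 libraries of each line. Per the methods of the authors, STAR placed each read at a single position of GRCm38, Picard MarkDuplicates took out PCR duplicates, and reads were counted in 200 bp bins with MEDIPS, where bins with P under 0.05 and a fold change of at least 1 became DhMRs. Bins that touched IgG-DIP peaks or held tandem repeats or low complexity DNA were left out, and the DhMRs were annotated with HOMER. Tool versions and the knockout exons are not given in the sources used here. The deposited lists pool the libraries and hold positions and, for most DhMRs, a gene ID. They give no count or other value, so depth per DhMR is unknown and no test was run.

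Here, positions were compared with GENCODE vM21 genes. Exon and intron numbers follow the longest coding transcript and the midpoint of a window, while membership follows any overlap. Sequence, CpG and repeat marks were read from GRCm38.p6, and stretches of 32 bases were counted on both strands. Genes of similar length differed from the member by a ratio of no less than 0.8, the shorter over the longer. The code ran in Python 3.11.15 with numpy 2.4.6 and matplotlib 3.10.9. Its functions gave the known answer in 15 of 15 checks on small made-up inputs.

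The members, the gene lists, the alternatives and the rule for named genes were chosen with earlier results of these data known. Named are the 9 genes with every DhMR, pathway genes with one inside or within 20 kb, genes overlapping a named DhMR or assigned to it, and the 5 genes nearest to *Tet1* in length with as many DhMRs higher in AA10 and none higher in Wt25. Genes of the runs around members, and pathway genes without a DhMR inside or within 20 kb, were named after their values had been seen. Motifs in the proteins of the 9 genes were not analysed here.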

Additional observations from a re-analysis of the deposited data

How the results depend on the processing

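With 9 other settings, 28 of 33 recomputed counts stayed within 1.5 times the values given. With the gene span alone, which drops both the flank and the gene ID of the lists, 7 DhMRs higher in Wt25 belonged to the 9 genes in place of 12. The 5 lost are those in *Dtnb*, which the gene ID alone had tied to *Dnmt3a*. By the gene with the nearest transcription start site, 7 higher in Wt25 and 8 higher in AA10 belonged to them, in place of 12 and 15, and by the authors' gene alone 8 higher in AA10. Without windows of at least 50% repeat bases, 5 of the 9 inside *Tet1* remained. Flanks of 5 and 50 kb, RefSeq gene spans and joining of neighbouring windows left the number of genes with a DhMR between 5 and 8, in place of 6. By the authors' gene alone and by the nearest start site it was 4, and neither *Tet3* nor *Dnmt3l* had a DhMR. No paired analysis was possible because the lists pool the libraries, for which reason no library could be left out and no stricter threshold could be set.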
